A study of Mus musculus with 82 samples.

Results

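Skin biopsies collected 28 days (d28) after a whole-body X-ray dose of 6 Gy were compared with biopsies collected from the same mice at day 4 (d4). The comparison took all arrays labeled 6 Gy at these time points whose mouse had both biopsies, which gave 6 arrays of 3 mice (M016, M018 and M020) of the 82 arrays of 24 mice in the series. The animals were male C57BL/6 mice (C57BL/6j in the labels), bought at 8 weeks of age, irradiated at 9 weeks with 6 MV photons under anesthesia, and they survived to d28. Each biopsy was cut from the shaved back of a mouse that had been biopsied at the earlier time points too, so that time after exposure, age and the number of earlier clippings and biopsies cannot be told apart here. The same difference, d28 minus d4, was formed in 3 mice of 1 Gy (M007, M008 and M009), 3 mice of 3 Gy (M013, M014 and M015) and 1 sham mouse (M002), which went through the procedure without radiation. The comparison addresses how the skin differed between the first week and the late phase after a high sublethal dose. The biopsies kept the blood in the tissue, and fewer cells of a type and less RNA per cell cannot be told apart in them.

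Skin holds an epidermis that renews from dividing basal cells, hair follicles that pass through growth, regression and rest, and below them a collagen-rich dermis, fat and a sheet of muscle. Ionizing radiation activates p53, which turns on genes of cell cycle arrest and DNA repair, and it depletes the bone marrow, from which red cells and leukocytes are replaced in the following weeks. Clipping and wounding can by themselves start hair growth and change the keratins that the epidermis makes.

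Biopsy RNA was labeled with Cy5 and a universal mouse reference RNA with Cy3, and values are given as the log2 ratio of Cy5 to Cy3, in the order M016, M018 and M020 where 3 values stand together. The 6 arrays were read on 1 scanner and lay on 4 slides, none of which held both biopsies of a mouse, so that within a mouse slide and time point cannot be told apart. Their median Cy5 intensity was between 77 and 118 and their median Cy3 intensity between 96 and 148, no spot was saturated in Cy5, and between 49.6% and 70.2% of the probes lay well above background in Cy5. With 3 mice, the precision of each mean is limited by their number. The keratins Krt5 and Krt14 of the basal epidermis marked all 6 biopsies as skin. Krt5 was at 4.41, 4.82 and 4.26 at d4 and at 4.40, 4.08 and 3.95 at d28, and Krt14 was at 4.25, 4.77 and 4.20 at d4 and at 4.41, 4.28 and 3.80 at d28. The mean differences of Krt5 (-0.35) and Krt14 (-0.24) were small, and with each array centered on its median in place of loess they turned to 0.33 and 0.36. That setting moves the median difference of all probes from 0.0092 to 0.141. Over a list of skeletal muscle genes the median log2 ratio of an array was between 5.01 and 5.90, and over a list of adipocyte genes between 2.54 and 3.94, so that all biopsies reached the layers below the dermis.

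Some of the d28 arrays also carried genes that skin is not known for. Transcripts typical of hepatocytes were high in M018 and M020 at d28. Alb, which encodes serum albumin, was at 0.63, 0.80 and 0.11 at d4 and at 0.32, 3.89 and 3.42 at d28. Over the 25 tested genes of a hepatocyte list of 30, the median log2 ratio was 0.05, 0.06 and 0.17 at d4 and 0.21, 2.62 and 2.71 at d28. Of the 25 genes, 15 were not well above background on any d4 array. The 7 that were so on all 3 d4 arrays had a median difference of -0.088, with 3 higher and 2 lower in all 3 mice. Transcripts of the exocrine pancreas were high in M020 at d28, where the median over 18 tested genes of 24 was 3.33, against 0.64 in M018, 0.20 in M016 and 0.03 to 0.09 at d4. Of the 18 genes, 8 were not well above background on any d4 array. The 9 that were so on all 3 had a median difference of 0.284, with 0 higher and 1 lower in all 3 mice. M018 and M020 differ from M016 in that respect before any other comparison, and the source of these transcripts was not tested. The mean difference was 3.38 for Serpina1d, a secreted liver protease inhibitor, and 2.57 for Ahsg, the fetuin A gene. Fabp1, which binds fatty acids, Ambp and the pancreatic genes named here were not well above background on any d4 array, and a value below is then a bound: the mean d28 signal set against the lowest signal called well above background on each d4 array, or against the gene's own signal where that was higher. Normalized Cy5 signal was at least 4.68-fold higher at d28 for Fabp1 and at least 3.77-fold for Ambp. In the pancreatic list it was at least 4.12-fold higher for 2210010C04Rik and at least 3.2-fold for Cpb1, a carboxypeptidase. It was at least 3.32-fold higher for Pnliprp1, related to pancreatic lipase. Without a dye swap such single-channel values are open to dye bias. These bounds rest on d28 means over mice that differed widely. The d28 minus d4 difference in log2 ratio was 0.362, 0.585 and 5.662 for 2210010C04Rik and 0.018, 1.091 and 4.603 for Cpb1. It was 0.119, 3.052 and 2.16 for Pnliprp1, which was highest in M018. For Fabp1 it was 0.285, 3.817 and 4.897, and for Ambp 0.175, 3.303 and 3.63. Clps, the colipase gene, was at -0.15, -0.06 and -0.16 at d4 and at 0.35, 1.72 and 4.37 at d28. In the arrays of the same mice from h2 to d21 the hepatocyte median lay between 0.02 and 0.21. In M019, a 6 Gy mouse with a d28 array and none at d4, the hepatocyte median was 1.64 and the pancreatic median 1.42. The d28 minus d4 median of the hepatocyte list was 4.17 in M014 of the 3 Gy mice and between 0.13 and 0.80 in the other irradiated mice of 1 and 3 Gy, and 0.03 in sham.

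Across all probes, no probe met both criteria of an SDTG (at least a 2-fold difference, with an adjusted p under 0.05) in limma's paired fit of 26012 probes, in which the pairs of 1 Gy, 3 Gy and sham shared the estimate of the spread. The smallest adjusted p was 0.222. Before adjustment, 433 probes (1.66%) were at least 2-fold higher and 305 (1.17%) at least 2-fold lower at d28 with p under 0.05. Represented by 1 probe each, 14420 genes were tested, of which 2455 (17%) were higher and 2153 (14.9%) lower in all 3 mice. With the d4 and d28 values not overlapping, 1369 genes (9.49%) were higher and 1138 (7.89%) lower. A difference of at least 2-fold in each of the 3 mice with an unadjusted p under 0.05 was met by 24 genes (0.166%) that were higher and 22 (0.153%) that were lower. With all 82 arrays in the fit and mouse as a random block, which takes the spread from every group of the series, 207 probes (0.796%) were higher and 163 (0.627%) lower past the thresholds. Counted as genes, these were 133 on the higher side (0.922%) and 115 on the lower (0.798%). The table of normalized values that the authors deposited gave 174 higher probes (0.669%) and 509 lower ones (1.96%). Its values lie on a narrower scale than the scanner software's log2 ratio. Their slope on that ratio was 0.619, 0.54 and 0.626 at d4 and 0.507, 0.531 and 0.493 at d28. A 2-fold threshold is therefore not the same there. How far this scale accounts for smaller or reversed deposited differences was not tested. The fit of all 82 arrays also holds the d4 array of M017 and the d28 array of M019, which were read on different scanners. They come from different mice and form no pair. List values given for them below are median log2 ratios of the array, not medians of differences. Every gene named in the text missed the threshold of the paired fit, and 45 of the 95 named genes passed with all 82 arrays and mouse as the block. Nothing is read from this share, since genes were named in part for large differences in the paired mice. The arrays of these mice are also in that fit, so that a pass there is not independent evidence. With slide as the random block over the same 82 arrays, 13 probes were higher and 2 lower, and 2 of the 95 named genes passed, Hbb-bt (adjusted p = 0.0161) and Ephx1 (0.0492). The passes over all 82 arrays given below are those with mouse as the block, and apart from these 2 genes each of them was lost with slide as the block. An exact test on the signs of 3 pairs cannot go below p = 0.25.

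**Figure D1:**
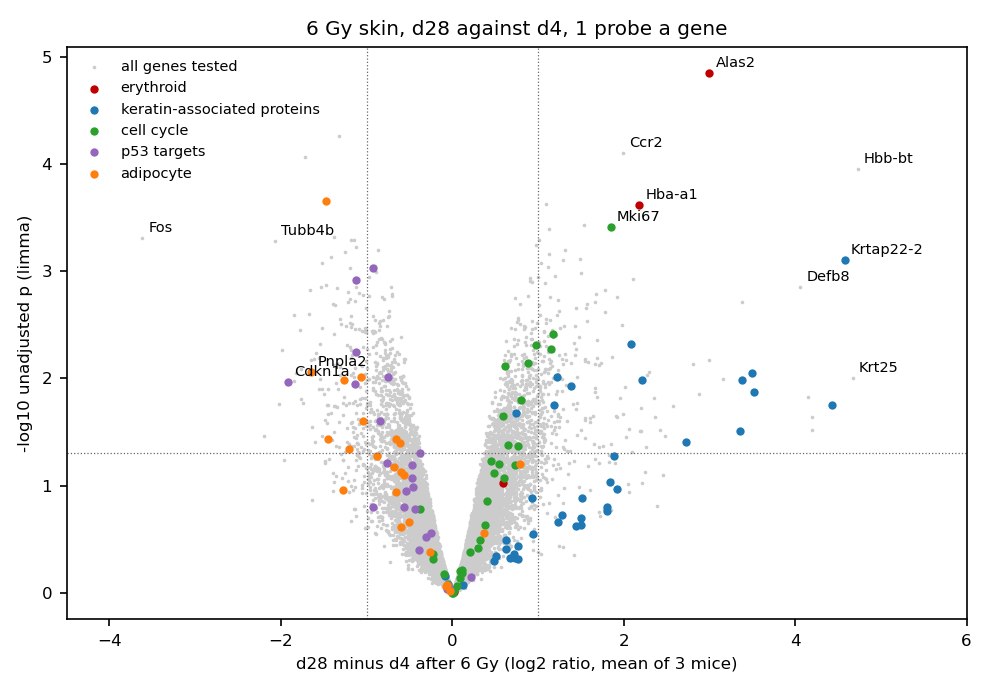
Each point is 1 of 14420 genes, with the mean d28 minus d4 difference of the 3 mice after 6 Gy on the log2 scale (x axis) and the unadjusted p of limma's paired fit as -log10 (y axis). Dotted lines mark a fold change of 2 and an unadjusted p of 0.05. The keratin-associated proteins (blue) spread to the right, up to 4.58 for Krtap22-2, the p53 targets (purple) and adipocyte genes (orange) lie mostly on the left, and Alas2, whose d4 values were not well above background, is at a p of 1.42e-05.

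The globin genes and Alas2 were higher at d28 in all 3 mice, and of the named genes measured well above background on all 6 arrays Hbb-bt had the largest mean difference. Hbb-bt, an adult beta-globin gene, was at 2.10, 5.11 and 2.37 at d4 and at 8.14, 8.34 and 7.28 at d28. Its mean difference was 4.73 ± 1.41 (SD, n = 3 mice; limma adjusted p = 0.281), and the 4 probes that carry this name gave between 2.23 and 4.91. M018 was already above the other mice at d4, and the time points did not overlap. Alas2, the erythroid enzyme that starts heme synthesis, was at 0.11, 0.31 and -0.02 at d4, where no array showed it well above background, and at 2.12, 4.07 and 3.21 at d28. Its mean difference was 3.00 ± 0.90 (SD, n = 3 mice; limma adjusted p = 0.222), and its normalized Cy5 signal was at least 5.79-fold higher at d28. Hba-a1, an alpha-globin gene, was at 2.03, 3.66 and 2.04 at d4 and at 4.70, 5.15 and 4.42 at d28, a mean difference of 2.18 ± 0.61 (SD, n = 3 mice; limma adjusted p = 0.302). The globin genes have near-identical copies, which these probes may not separate. In the fit of all 82 arrays the adjusted p was 0.000449 for Hbb-bt, 0.00267 for Alas2 and 0.00976 for Hba-a1, and all 3 passed. With slide as the block Alas2 was at 0.293 and Hba-a1 at 0.229. In the deposited normalized values the mean difference was smaller, 2.12 for Hbb-bt, 1.21 for Alas2 and 1.28 for Hba-a1. Slc4a1, the anion exchanger of the red cell membrane, differed by 0.60 in the mean, with -0.23 in the deposited normalized values, and its d4 and d28 values overlapped. Of the list of 16 erythroid genes, 12 were on the array and only 4 were bright enough to be tested, of which 3 were higher in all 3 mice (17% of all genes). Well above background on all d4 arrays were 2 of the 4, of which 1 was higher in all 3 mice. Nothing is read from the share, since a gene tested only because another group was bright could hardly be lower at d28.

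Earlier time points put these values in a course. Alas2 was at 2.92 in M016 and 3.08 in M020 at h2, before the low values of d4, and still at 0.94 in M018 and 0.19 in M020 at d7. At d21 it was at 3.87 in M016 and 1.06 in M018. Hbb-bt was at 7.85 in M016 and 7.21 in M020 at h2, so that d28 was close to the level of h2 and d4 was the low point in both mice. At d7 Hbb-bt was at 7.56 in M018 and at 2.60 in M020. The unpaired 6 Gy arrays lay on the same sides, with Alas2 at 0.31 and Hbb-bt at 1.71 in M017 at d4, and Alas2 at 4.64 and Hbb-bt at 8.68 in M019 at d28. M017 at d4 was read on another scanner.

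**Figure D2:**
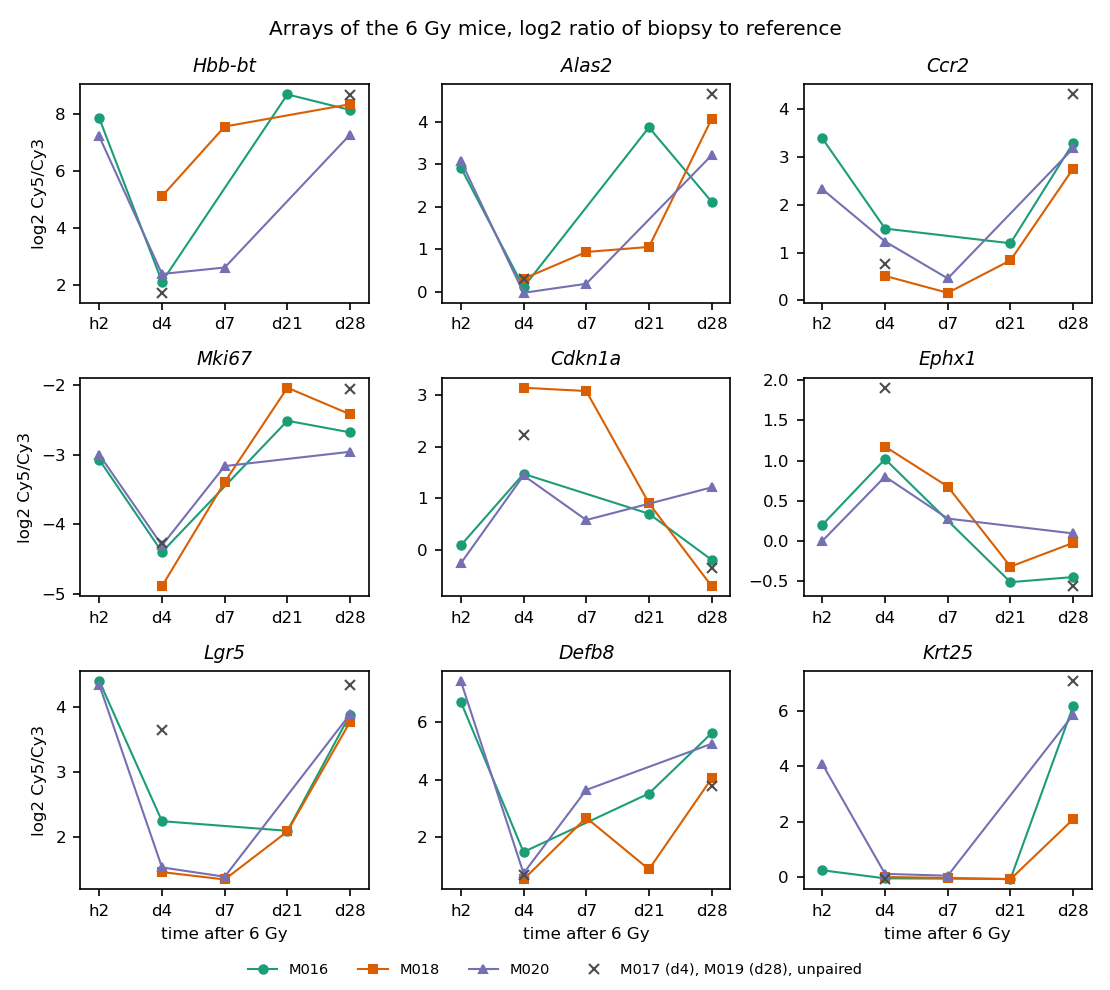
Log2 ratio of biopsy to reference (y axis) of 9 genes at each time point with an array (x axis, not to scale) in M016, M018 and M020, with the unpaired arrays of M017 at d4 and M019 at d28 as crosses. Hbb-bt, Alas2, Mki67, Lgr5 and Defb8 are lowest or near lowest at d4, while Cdkn1a and Ephx1 are highest at d4 in the mice that also have an h2 array.

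Blood monocytes and antigen presentation were the next group. Ccr2, the chemokine receptor with which inflammatory monocytes leave the marrow, was at 1.50, 0.51 and 1.23 at d4 and at 3.29, 2.75 and 3.18 at d28. The mean difference was 1.99 ± 0.23 (SD, n = 3 mice; limma adjusted p = 0.25), the adjusted p in the fit of all 82 arrays was 0.00457, and a second, dimmer probe of Ccr2 gave 0.44. In the deposited normalized values Ccr2 differed by 1.02. Ccr2 was at 3.38 in M016 and 2.32 in M020 at h2, and at 4.30 in M019 at d28. Cybb, the catalytic subunit of the phagocyte oxidase, was at 0.36, -0.18 and 0.61 at d4 and at 1.13, 0.34 and 1.59 at d28, a mean difference of 0.76. Ctss, a lysosomal protease of antigen-presenting cells, differed by 0.65 in the mean, and Aif1, a macrophage marker, by 0.51 with the brighter probe, which turned to -0.17 in the deposited normalized values, and by 1.79 with the other. Of the 19 macrophage and monocyte genes tested, 6 were higher and 0 lower in all 3 mice, against 17% and 14.9% of all genes. Their median was 0.40, but it was 0.01 in M016, 1.16 in M018 and -0.09 in M020, and without M018 it was -0.04, as it was -0.35 in the deposited normalized values.

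Of the genes of MHC class II presentation, 3 are named here, chosen from the list of dendritic and Langerhans cells, and none passed the paired fit. Ciita, the master regulator of these genes, was at 0.76, 1.55 and 0.87 at d4 and at 1.95, 3.32 and 1.62 at d28, a mean difference of 1.24. H2-DMb1, which helps to load peptides, was at 2.44, 2.34 and 2.31 at d4 and at 3.15, 3.34 and 3.64 at d28, a mean difference of 1.01 ± 0.31 (SD, n = 3 mice; limma adjusted p = 0.33). Ciita differed by 0.10 and H2-DMb1 by 0.07 in the deposited normalized values. H2-Aa, a class II chain, differed by 0.69, and it was lower at d28 with the scanner software's ratio (-0.26) and in the deposited normalized values (-0.27). Xcr1, a receptor of cross-presenting dendritic cells, differed by 0.72 and turned to -0.20 with slide as a random block over all 82 arrays. The list of dendritic and Langerhans cells had 4 genes higher and 0 lower in all 3 mice of 14 tested, against 17% and 14.9% of all genes, and a median of 0.35, which turned to -0.04 in the deposited values and to -0.01 with the scanner software's ratio. The medians of the T cell (0.09 over 15 genes), B cell (0.17 over 6), natural killer cell (0.07 over 3), mast cell (0.34 over 8), neutrophil (0.39 over 4) and platelet (0.36 over 8) lists were all below 0.4 in size. The mast cell median turned to -0.10 and the natural killer cell median to -0.54 with the scanner software's ratio. At both time points the median log2 ratio over the T cell genes lay between -0.01 and 0.28 and over the B cell genes between -0.06 and 0.14, which is close to the reference.

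Targets of p53 had a negative median difference in each of the 3 mice, and none of them passed the paired fit. Of 24 tested genes, 13 were lower and 0 higher in all 3 mice, against 14.9% and 17% of all genes, and the median difference was -0.47 (-0.52, -0.41 and -0.60 in the 3 mice), where the median of all probes was 0.0092. With each array centered on its median the median of the list was -0.05, and in the deposited normalized values it was -0.19. Cdkn1a, the p21 inhibitor of the cell cycle, was at 1.47, 3.15 and 1.44 at d4 and at -0.19, -0.70 and 1.21 at d28. Its mean difference of -1.92 ± 1.82 (SD, n = 3 mice; limma adjusted p = 0.33) ranged widely, M020 having almost kept its d4 level. Ephx1, a detoxifying epoxide hydrolase, was at 1.02, 1.17 and 0.80 at d4 and at -0.45, -0.02 and 0.09 at d28, a mean difference of -1.12 ± 0.39 (SD, n = 3 mice; limma adjusted p = 0.306). Dcxr, a reductase of sugar metabolism, differed by -1.13, and Zmat3, an RNA-binding protein induced by p53, by -1.13, from 0.78, 1.09 and 0.49 at d4 to -0.50, -0.83 and 0.30 at d28. In the fit of all 82 arrays, 4 of the 24 genes passed as lower, namely Cdkn1a (adjusted p = 0.00372), Ephx1 (0.00217), Dcxr (0.00456) and Zmat3 (0.0038), against 0.798% of all genes. With slide as the block Ephx1 alone of these passed, Cdkn1a being at 0.157. The median log2 ratio over the list was -0.02 in M016 and -0.14 in M020 at h2, between 0.58 and 0.65 in the 3 mice at d4, and -0.29, -0.35 and 0.05 at d28. It was 0.61 in M017 at d4 and -0.34 in M019 at d28.

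Genes of dividing cells had a positive median difference in each of the 3 mice, though hardly in M016, and none passed the paired fit. Mki67, which marks cycling cells, was at -4.40, -4.89 and -4.31 at d4 and at -2.68, -2.42 and -2.96 at d28, a mean difference of 1.85 ± 0.57 (SD, n = 3 mice; limma adjusted p = 0.306). The reference RNA held far more of it than skin did at both time points, and a second probe gave 1.08. Cenpe, a kinetochore motor, differed by 1.18, Birc5, the survivin gene, by 1.15 and Kif20a, a mitotic kinesin, by 0.98. Of 34 cell cycle genes, 15 were higher and 1 lower in all 3 mice, against 17% and 14.9% of all genes, with a median of 0.35 (0.04, 0.61 and 0.37). In the fit of all 82 arrays 6 of them passed as higher, Mki67 with an adjusted p of 0.000636, Birc5 with 0.00254 and Cenpe with 0.00722 among them, against 0.922% of all genes. With slide as the block none of the 6 passed, Mki67 being at 0.142 and Birc5 at 0.204. In the mice with an h2 array, Mki67 had been at -3.08 in M016 at h2 and close to that in M020, above its d4 values, and at d7 it was at -3.40 in M018 and -3.17 in M020.

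Hair follicle genes gave the widest spread between mice. At d4 the keratins of the hair shaft and inner root sheath were near a log2 ratio of 0 in all 3 mice, and at d28 they were high in M016 and M020 and low in M018. Krt71, a keratin of the inner root sheath, was at 0.28, 0.20 and 0.31 at d4 and at 6.81, 0.30 and 6.27 at d28. Krt33a, a hair cortex keratin, was at 0.23, 0.07 and 0.30 at d4 and at 6.40, 0.11 and 6.69 at d28, a signal at least 11.7-fold higher in the mean. In M018 both stayed at their d4 level. Krt25, of the inner root sheath, was at -0.04, 0.01 and 0.12 at d4, not well above background on any of the 3 arrays, and at 6.16, 2.09 and 5.85 at d28. It was the one of these 3 keratins that was clearly higher in M018 as well, its signal being at least 18.7-fold higher in the mean. Tchh, the trichohyalin gene, was at 3.28, 2.75 and 3.24 at d4 and at 8.90, 2.87 and 6.98 at d28, and a second probe gave 0.45 in the mean against 3.16. Over 20 tested genes of the list of 28, the median difference was 1.51, with 2.47 in M016, -0.12 in M018 and 2.90 in M020, and without M018 it was 2.39. Of the 20 genes, 9 were higher and 0 lower in all 3 mice (17% and 14.9% of all genes), and in the fit of all 82 arrays 4 passed as higher (0.922% of all genes). Nothing is read from these shares, since a gene that was tested only because another group was bright could hardly be lower at d28, and of the 20 genes 9 were not well above background on any d4 array. Of the 6 that were so on all 3 d4 arrays, 2 were higher and 0 lower in all 3 mice, with a median of 0.94. In the deposited normalized values, on their narrower scale, the median of the list was 0.52 and none of its genes passed. Krt25 differed by 0.84 and Krt71 by 0.77 there.

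The keratin-associated proteins, which crosslink the keratins of the hair shaft, behaved alike. Of 37 tested members of 41, 21 were higher and 0 lower in all 3 mice and 12 were at least 2-fold higher with an unadjusted p under 0.05 (1.69% of all genes). The filter fixes these counts in part, so that nothing is read from the shares, as 22 members were not well above background on any d4 array. Of the 10 that were so on all 3 d4 arrays, 6 were higher and 0 lower in all 3 mice. The median difference was 2.05 in M016, 0.03 in M018 and 1.91 in M020. Krtap22-2 was at 0.15, 0.44 and 0.21 at d4 and at 6.77, 2.60 and 5.17 at d28, a mean difference of 4.58 ± 2.26 (SD, n = 3 mice; limma adjusted p = 0.306) and a signal at least 23.8-fold higher. Krtap6-1 was at 0.19, 0.49 and 0.24 at d4 and at 7.97, 0.66 and 5.57 at d28, Krtap16-3 at 0.72, 0.02 and 0.79 and then 6.51, 1.11 and 4.47. Krtap8-1 differed by 3.50 in the mean, while in M018 it stayed at -0.10. These genes share sequence within the family, and probes may pick up more than 1 of them. In the fit of all 82 arrays 7 members passed as higher (0.922% of all genes), and the median without M018 was 2.03. In the deposited normalized values the median was 0.72 and 1 member passed (0.669% of all probes). At h2 the median over the family was 1.07 in M020 and 0.05 in M016, and it lay between -0.09 and 0.15 at d7 and d21 in the arrays of these mice.

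Genes of hair follicle stem and progenitor cells differed less between mice. Lgr5, a receptor of cycling follicle stem cells, was at 2.24, 1.46 and 1.53 at d4 and at 3.88, 3.77 and 3.88 at d28, a mean difference of 2.10 ± 0.40 (SD, n = 3 mice; limma adjusted p = 0.306; 0.04 over all 82 arrays). In M018, whose hair keratins were low, Lgr5 was as high at d28 as in the other mice. It had been at 4.39 in M016 and 4.33 in M020 at h2 and was at 2.09 and 2.08 at d21 in M016 and M018. Lgr5 differed by 0.41 in the deposited normalized values. The unpaired arrays differed less, at 3.65 in M017 at d4 and 4.34 in M019 at d28. Lhx2, a transcription factor of follicle stem cells, differed by 1.15 in the mean and turned to -0.24 in the deposited normalized values, Wif1, a secreted Wnt inhibitor, by 1.11 and Sox9 by 0.85, with its 3 probes between -0.30 and 1.17. In the unpaired arrays Lhx2 was at 3.36 in M017 at d4 and 1.92 in M019 at d28 and Wif1 at 2.13 and 1.82, the other way round. The list of hair cycle signaling had a median of 0.23 over 22 genes, with 8 higher and 2 lower in all 3 mice (17% and 14.9% of all genes), and -0.07 in the deposited values. Melanocyte pigment genes (median 0.10 over 7) and sebaceous gland genes (0.10 over 6) had no common direction. Both turned sign under several settings.

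**Figure D3:**
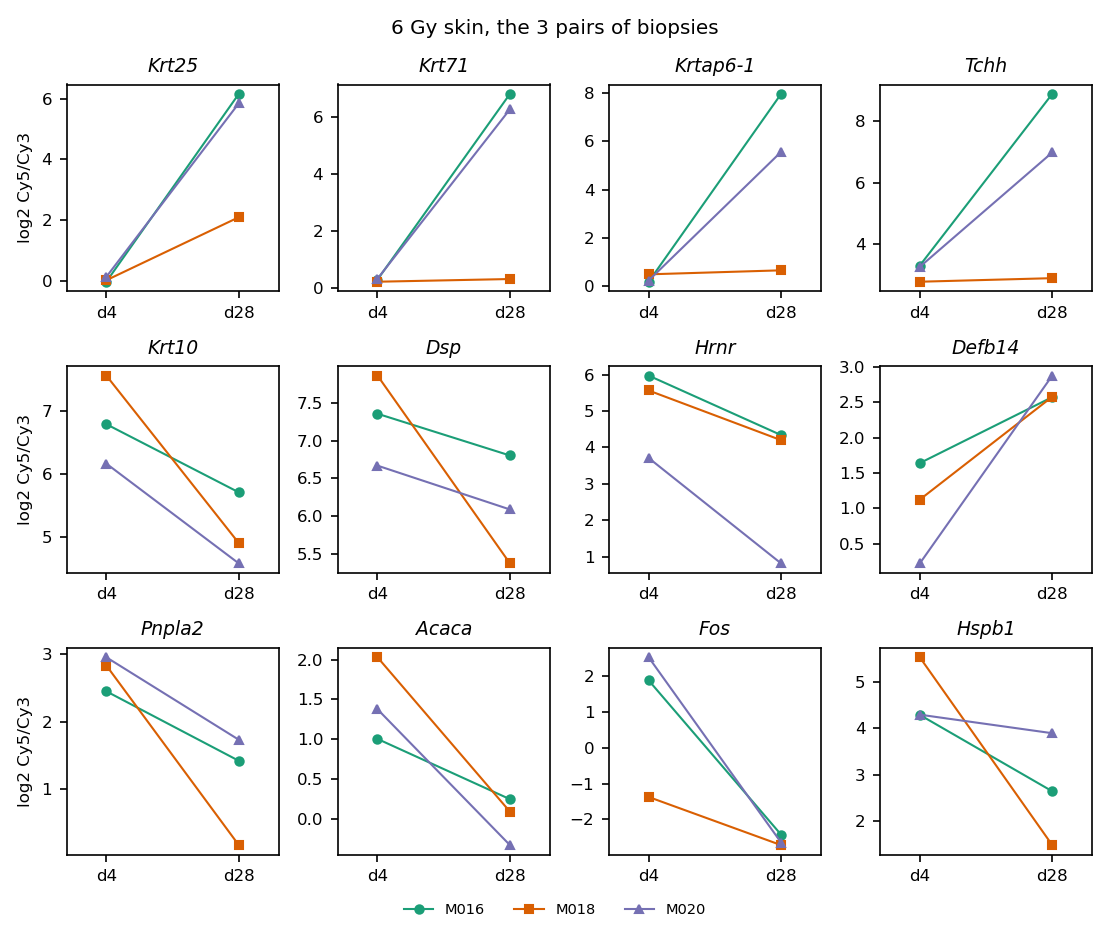
Log2 ratio of biopsy to reference (y axis) at d4 and d28 (x axis) in M016, M018 and M020 for 12 genes. The hair genes of the top row are far higher at d28 in M016 and M020 and hardly so in M018, apart from Krt25, and Krt10, Pnpla2 and Fos are lower at d28 in each mouse.

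Differentiating epidermis was lower at d28 for single genes but not as a whole. Krt10, the keratin of suprabasal cells, was at 6.78, 7.56 and 6.16 at d4 and at 5.70, 4.90 and 4.57 at d28, a mean difference of -1.78 ± 0.81 (SD, n = 3 mice; limma adjusted p = 0.326; 0.0223 over all 82 arrays). Dsp, the desmosomal protein desmoplakin, differed by -1.21 with the brightest of its 4 probes and by -0.36 with the one that differed least. Dsc1, a desmosomal cadherin, differed by -0.84 and Itga6, an integrin of basal cells, by -0.87. Among cornified envelope genes, Hrnr was at 5.98, 5.57 and 3.71 at d4 and at 4.34, 4.20 and 0.81 at d28, Flg2 differed by -1.03, Ivl by -0.99 and Ppl by -0.90. The protease gene Klk7 differed by -0.66 in the mean and by 0.26 in M016. In the unpaired arrays Klk7 was at 4.64 in M017 at d4 and 6.21 in M019 at d28 and Ivl at 2.99 and 4.65, the other way round. The median was -0.35 over 17 genes of the interfollicular epidermis and -0.22 over 37 cornified envelope genes, and with each array centered on its median these turned to 0.06 and 0.14. No gene of either list was higher in all 3 mice, and 7 of 17 and 9 of 37 were lower in all 3, against 14.9% of all genes. In the unpaired arrays the cornified envelope median was at 3.82 in M017 at d4 and 4.35 in M019 at d28.

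Antimicrobial and wound keratinocyte genes were higher in part. Defb8, a beta-defensin, was at 1.47, 0.52 and 0.73 at d4 and at 5.62, 4.04 and 5.25 at d28, a mean difference of 4.06 ± 0.50 (SD, n = 3 mice; limma adjusted p = 0.306; 0.0173 over all 82 arrays). It had been at 6.71 in M016 and 7.43 in M020 at h2, and at d7 it was at 2.67 in M018 and 3.64 in M020. Defb14, an inducible beta-defensin, was at 1.64, 1.12 and 0.22 at d4 and at 2.57, 2.58 and 2.88 at d28. Its mean difference of 1.68 passed over all 82 arrays with an adjusted p of 0.00506. Krt6b and Krt16, keratins of wounded and hyperproliferative epidermis, differed by 1.90 and 1.48, both least in M016, and Stfa1, a stefin, by 1.42, which came to -0.01 with the scanner software's ratio. Slpi, an antimicrobial protease inhibitor, differed by 0.59, most of it in M018. The median of the 31 tested genes was 0.57 (-0.18, 0.91 and 0.40), with 7 higher and 5 lower in all 3 mice, against 17% and 14.9% of all genes. The genes named here are all from the higher side, while the lowest member of the list differed by -1.20. At least 2-fold with an unadjusted p under 0.05 in limma's paired fit, 2 members were higher and 1 lower.

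Fat genes were lower at d28 in M018 and M020, and in M016 hardly as a group. Pnpla2, the lipase that starts fat breakdown, was at 2.45, 2.84 and 2.96 at d4 and at 1.42, 0.16 and 1.73 at d28, a mean difference of -1.65 ± 0.90 (SD, n = 3 mice; limma adjusted p = 0.33; 0.0179 over all 82 arrays). Acaca, the acetyl-CoA carboxylase of fatty acid synthesis, was at 1.00, 2.03 and 1.38 at d4 and at 0.24, 0.09 and -0.33 at d28, and its 4 probes ranged from -1.47 to 0.47. Dgat2, which makes triglycerides, differed by -1.45 and Plin1, which coats lipid droplets, by -1.27, both most in M018. Of 23 adipocyte genes 13 were lower and 2 higher in all 3 mice, against 14.9% and 17% of all genes, and 5 passed as lower over all 82 arrays, against 0.798%. The median was -0.65, with -0.03 in M016, -1.06 in M018 and -0.83 in M020, and it came to -0.18 with median centering and to -0.32 over all 82 arrays. It was -1.28 in the deposited normalized values, where 17 of the 23 genes passed as lower, as did 1.96% of all probes. The unpaired arrays, read on different scanners, ran the other way over the list, at 2.12 in M017 at d4 and 2.71 in M019 at d28. The genes named here did not: Pnpla2 was at 1.77 and 0.27, Acaca at -0.007 and -0.413, Dgat2 at 4.42 and 2.22 and Plin1 at 3.907 and 2.715. Endothelial genes had a median of -0.29 over 15 genes that was positive in M020 (0.54) and turned to 0.05 with median centering and to 0.04 without M018. In the deposited normalized values it was -1.49, and 13 of the 15 genes passed as lower there, as did 1.96% of all probes. Pecam1 differed by -0.78, Tek, the angiopoietin receptor, by -0.46 and Mmrn2, an endothelial matrix protein that is in no list, by -1.76 ± 0.33 (SD, n = 3 mice; limma adjusted p = 0.345). Smooth muscle actin, Acta2, differed by -1.84 with its brightest probe and by 0.46 with another. Skeletal muscle genes had a median of -0.17 over 27 that came from M020 (-1.05) and turned to 0.25 without it and to 0.23 with median centering (4.70 in M017 at d4 and 5.37 in M019 at d28), Acta1 being at 6.58, 6.91 and 7.52 at d4 and at 6.46, 5.45 and 6.03 at d28. Genes of Schwann cells and nerve had a median of -0.18 over 9, with a positive median in M018 (0.47), and 0.08 with median centering.

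Immediate early genes, which respond to handling and tissue stress within minutes, were mostly lower at d28 in the 3 pairs, and none passed the paired fit. Fos was at 1.89, -1.38 and 2.54 at d4 and at -2.43, -2.73 and -2.65 at d28, a mean difference of -3.62 ± 2.01 (SD, n = 3 mice; limma adjusted p = 0.306; 0.0279 over all 82 arrays). Fos differed by -1.16 in the deposited normalized values. M018 was low at both time points, and at d7 Fos was at 2.42 in M018 and -2.32 in M020. Egr1 differed by -1.85, Atf3 by -1.59 and Fosb by -1.82, which turned to 0.73 in the deposited normalized values. Of 19 genes 14 were lower and 1 higher in all 3 mice, against 14.9% and 17% of all genes. Over all 82 arrays 1 of them passed. The median was -0.69, with -0.08 after median centering and 0.05 in the deposited values, and over the list M017 at d4 (-1.43) lay below M019 at d28 (-0.92). Among heat shock genes, the small chaperone gene Hspb1 was at 4.29, 5.52 and 4.29 at d4 and at 2.64, 1.49 and 3.89 at d28, a mean difference of -2.03 with an adjusted p of 0.00267 over all 82 arrays. Hspb8 differed by -1.13 ± 0.37 (SD, n = 3 mice; limma adjusted p = 0.326), whereas Hspa5, the chaperone of the endoplasmic reticulum, was at -2.24, -1.97 and -1.95 at d4 and at -1.24, -0.89 and -1.03 at d28. The list of 15 had a median of -0.40, which turned to 0.16 with median centering. In the circadian clock, Nr1d1 differed by -0.94 and Arntl by -0.57, and the median over 18 genes was -0.01. Interferon-stimulated genes were split by mouse, with a median of -0.82 in M016, 0.48 in M018 and -0.14 in M020. The median over all 3, -0.21, turned to 0.16 with median centering and to 0.13 in the fit of all 82 arrays. Irf7, the interferon regulator, differed by -1.18 with all 3 mice lower, by -0.43 in the fit of all 82 arrays, and was at 0.002 in M017 at d4 and 2.09 in M019 at d28. Over the list these arrays were at 0.57 and 2.28.

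Matrix genes had a positive median difference in the 3 pairs, largest in M018, and the unpaired arrays ran the other way, from 1.72 in M017 at d4 to 0.98 in M019 at d28 over the list. Col2a1, a collagen best known from cartilage, was at 3.48, 1.41 and 3.60 at d4 and at 4.28, 4.70 and 4.43 at d28. M018 had the lowest value of the 3 mice at d4 and the highest at d28. Col3a1, a fibrillar collagen of the dermis, was at 4.16, 2.37 and 3.96 at d4 and at 4.22, 5.09 and 4.75 at d28, its 2 probes giving 1.19 and -0.01. Col1a1 differed by 0.96 in the mean and Col1a2 by 0.89, but in M016 by -0.54 and -0.13, and another probe of Col1a1 gave -0.39. Col1a1 was at 4.62 in M017 at d4 and 2.50 in M019 at d28, and Col3a1 at 5.68 and 4.19. In the deposited normalized values Col1a1 was at -0.13, Col1a2 at -0.42 and Col3a1 at -0.20. Serpinh1, the collagen chaperone, differed by 1.71 and Postn, the matrix protein periostin, by 1.06. The median of 32 matrix genes was 0.47 (0.04, 0.96 and 0.45), and it was -0.15 in the deposited values. Fibroblast markers had a median difference of 0.23 over 11 genes with a negative value in M020 (-0.52). As a median log2 ratio of the array they were at 1.22 in M017 at d4 and 0.54 in M019 at d28. By that measure they were higher at d28 in the 3 pairs, in M020 at 0.155 and 1.46. The genes that the study assigned to GP6 signaling, mostly collagens, had a median of 0.28 over 16, with -0.27 in M016, 0.34 in M018 and 0.72 in M020. Those of intrinsic prothrombin activation had 0.41 over 8. Taken from the deposited table, the medians had the opposite direction, -0.35 for GP6 signaling and -0.42 for prothrombin activation. As a median log2 ratio of the array, M017 at d4 was also above M019 at d28 over the GP6 genes (2.45 and 1.13) and the prothrombin genes (4.28 and 3.55). The same held for the study's hematological genes (1.89 and 0.995). By that measure the GP6 genes were lower at d28 in M016 (1.70 and 1.36) and M018 (1.33 and 0.86) too. In M020 they were higher (1.78 and 2.305). The prothrombin and hematological genes were higher at d28 in all 3 pairs by it. The study chose these genes on these samples, so that their direction is not independent evidence. Its hematological genes had a median of 0.86 over 8, with Hba-a1 as the largest, Pdgfrl, related to a platelet growth factor receptor, at 1.34 and the leukocyte receptor gene Pirb at 0.68, which turned to -0.955 in the deposited values.

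**Figure D4:**
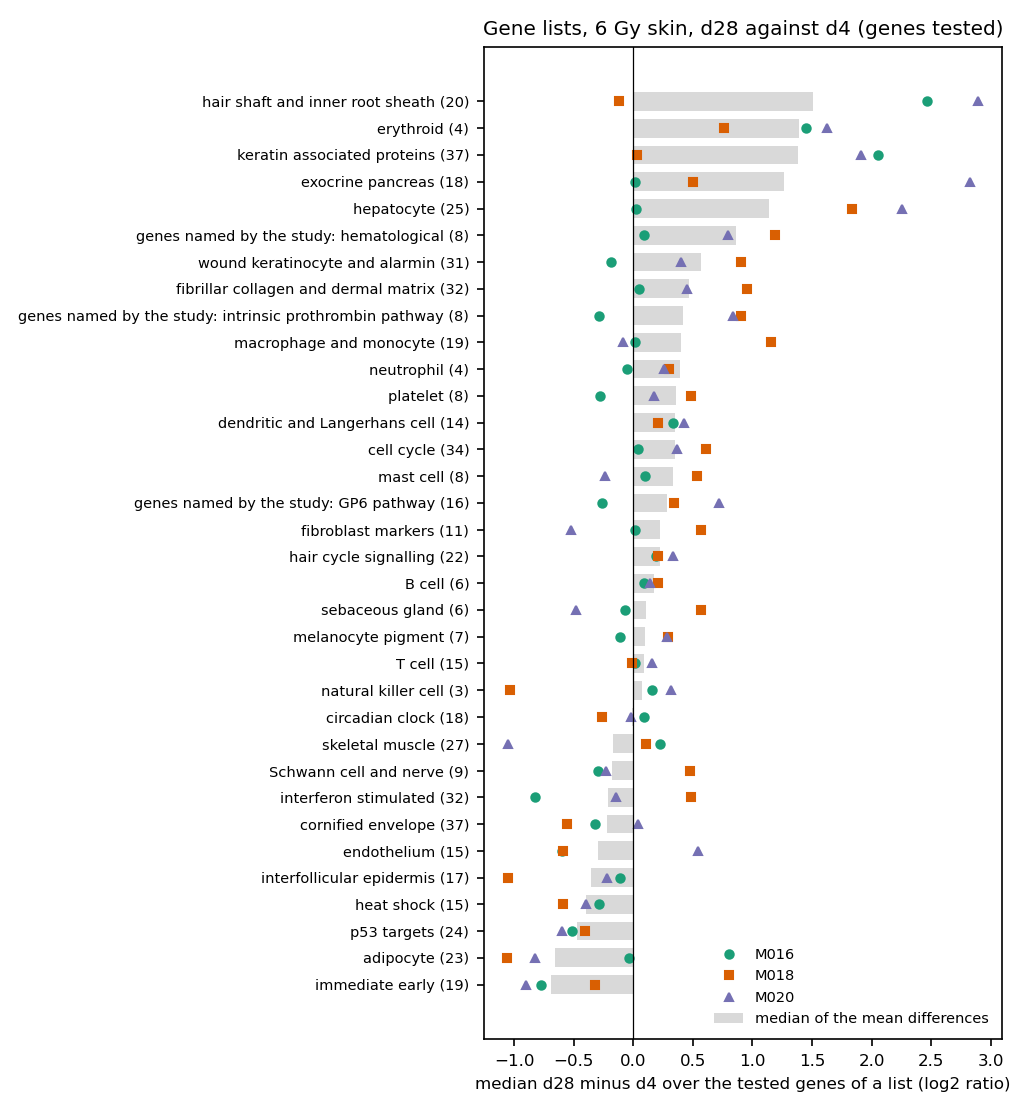
For each gene list, the bar is the median over its tested genes (number in parentheses) of the mean d28 minus d4 difference after 6 Gy on the log2 scale, and the symbols are the medians in M016, M018 and M020. The lists run from 1.51 for hair shaft and inner root sheath to -0.69 for immediate early genes, and the 3 mice lie close together for the p53 targets and far apart for the hair, hepatocyte and pancreas lists.

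Among the 12 genes with the largest mean difference each way that were at least 2-fold in all 3 mice with an unadjusted p under 0.05, some belong to no list. Lrrc15, a membrane protein of matrix-producing cells, was at 1.09, 0.36 and 0.44 at d4 and at 3.88, 2.44 and 4.21 at d28, its brighter probe giving 2.88 and the other a smaller difference of the same sign. It did not pass over all 82 arrays (adjusted p = 0.0742) and differed by 0.27 in the deposited normalized values. Ugt2b34, a glucuronosyltransferase, differed by 2.30, most in M020, whose d28 array had the highest hepatocyte median, and was at 2.79 in M017 at d4 and 2.63 in M019 at d28. Tubb4b, a beta-tubulin, was at 0.97, 1.29 and 0.53 at d4 and at -0.82, -1.12 and -1.48 at d28, a mean difference of -2.07 ± 0.32 (SD, n = 3 mice; limma adjusted p = 0.306; 0.00842 over all 82 arrays). Eno1, a glycolytic enolase, and Uba1, the enzyme that activates ubiquitin (its other probe gave -0.74), had differences that hardly varied between mice, -1.68 ± 0.08 and -1.55 ± 0.07 (SD, n = 3 mice each). Over all 82 arrays Uba1 passed (adjusted p = 0.0171) and Eno1 did not (0.192), and Eno1 was at -3.11 in M017 at d4 and -1.90 in M019 at d28, the other way round. Tanc1, a scaffold protein, differed by -1.66 (0.00289 over all 82 arrays) and Homer2, another scaffold protein, by -1.62, with its other probes at -1.36 and 0.04. Ifitm6, of the interferon-induced transmembrane family, differed by -1.77, Acp5, the tartrate-resistant acid phosphatase, by -1.50 and Glb1l2 by -1.53, with Glb1l2 at 4.08, 4.30 and 4.21 at d4 and at 3.00, 2.17 and 2.83 at d28. The other genes of this selection are described above.

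Set beside the other doses, no probe differed between 6 Gy and 1 Gy, 3 Gy or sham past the thresholds in limma's paired fit. At an unadjusted p under 0.05 with a fold difference of at least 2, 246 probes (0.946%) were higher after 6 Gy than after 1 Gy and 71 (0.273%) lower, 508 (1.95%) were higher and 147 (0.565%) lower than after 3 Gy, and 569 (2.19%) were higher and 277 (1.06%) lower than in sham, which was 1 pair and is assumed to vary like the others. With all 82 arrays in the fit, 29 probes were higher and 11 lower after 6 Gy than after 3 Gy, 1 was higher than in sham, and none differed from 1 Gy. With slide as the block over the same arrays, 0 probes differed from any of the 3. Alas2 differed by 2.42, 2.66 and 3.81 in the mice of 1 Gy, by 3.77, 2.71 and 3.65 in those of 3 Gy and by -0.92 in the sham pair. All irradiated mice were thus higher at d28 and the single sham pair was not, and the 6 Gy mean exceeded the sham value by 3.92 with an adjusted p of 0.926 in limma's paired fit. Since Alas2 was not well above background on any 6 Gy d4 array, its 6 Gy differences are set against values near the floor. Hbb-bt differed by 1.59 and 1.77 in the mice of 1 Gy with a value, by 2.50, 5.35 and 6.47 after 3 Gy and by 0.65 in sham.

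Several of the other genes had the same direction in the sham pair, though not in every irradiated mouse. Fos differed by -4.80 in the sham pair, between -4.18 and -2.76 after 1 Gy and between -3.36 and -0.39 after 3 Gy. Ccr2 differed by 2.01 in sham, by 1.62 in the mean after 1 Gy and by 0.64 after 3 Gy, where M014 was at -0.14. Lgr5 differed by 2.04 in sham, 0.09 after 1 Gy (M008 at -1.67) and 0.89 after 3 Gy. Mki67 differed by 1.98 in sham, 0.37 after 1 Gy (M008 at -0.28) and 1.19 after 3 Gy. Pnpla2 differed by -1.53 in sham, -0.35 after 1 Gy (M008 at 1.45) and -1.75 after 3 Gy. The median of the endothelial list was -1.59 both in sham and after 3 Gy, below that of 6 Gy. The median of the adipocyte list was -1.07 in sham, -0.39 after 1 Gy and -0.79 after 3 Gy. For the p53 targets it was -0.14 in sham, -0.13 after 1 Gy and -0.33 after 3 Gy, against -0.47 after 6 Gy, and Cdkn1a differed by -0.62 in sham, -1.37 after 1 Gy and -0.72 after 3 Gy. Hair genes varied from mouse to mouse at every dose. The keratin-associated proteins had a median of 6.03 in M014, 0.55 in M015 and 0.37 in M013 after 3 Gy, and -0.53 in M009, 0.08 in M008 and 0.11 in M007 after 1 Gy, and Krt25 differed by -5.89 in M009 and by 8.14 in M014. Defb8 differed between 3.52 and 4.52 in the mice of 6 Gy, by 1.75 in sham, between 0.10 and 1.75 after 3 Gy and between -1.31 and 4.67 after 1 Gy. The adjusted p of the difference from 3 Gy was 0.84 in limma's paired fit.

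**Figure D5:**
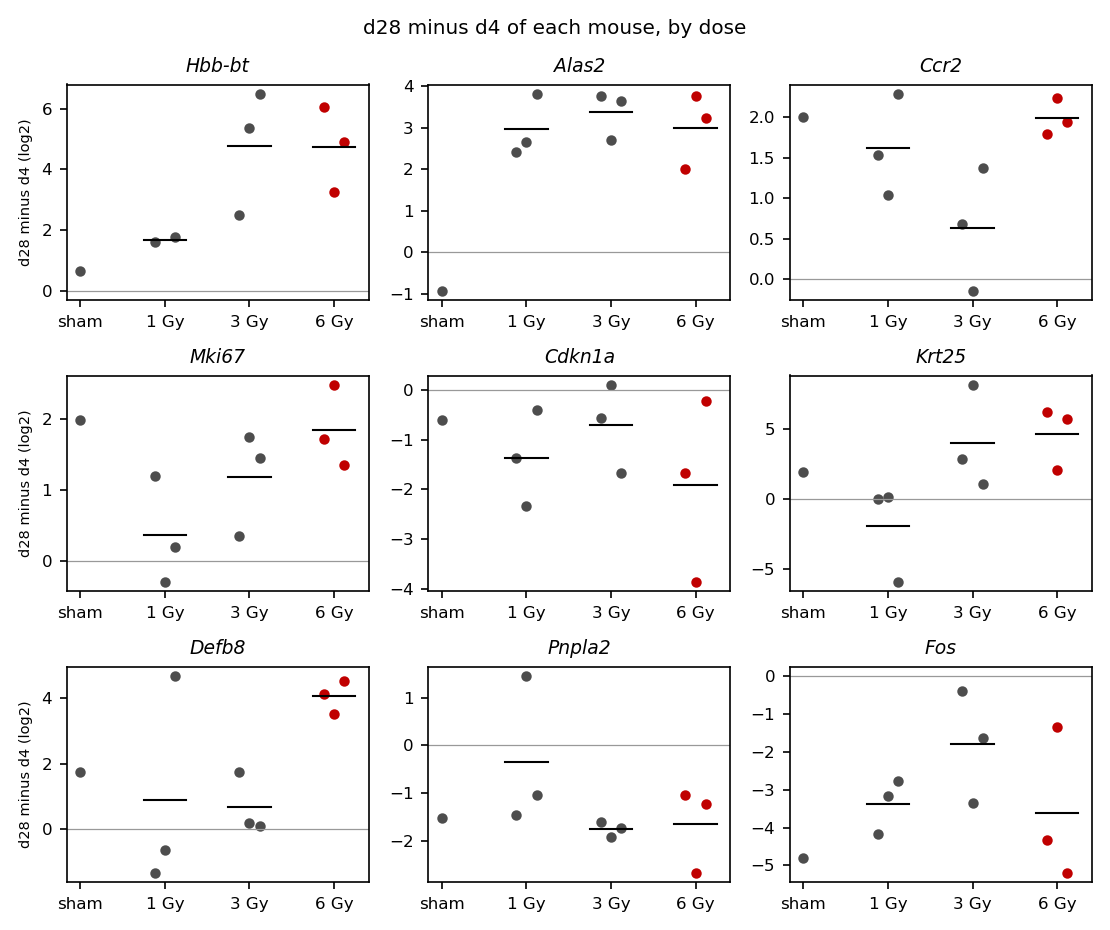
Difference d28 minus d4 on the log2 scale (y axis) of each mouse with both arrays, by dose (x axis; 1 sham mouse, 3 mice each of 1, 3 and 6 Gy, 6 Gy in red), with the mean of each irradiated group as a bar. Hbb-bt has no value in M008 of 1 Gy. Alas2 is higher at d28 in every irradiated mouse and not in the sham mouse, while Fos is lower at d28 and Ccr2 mostly higher at every dose including sham.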

How the data were processed

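RNA of skin biopsies (Cy5) and a universal mouse reference (Cy3) were hybridized to 2-colour Agilent arrays without dye swap. The deposited scanner files of the authors hold the mean and background intensity of each spot and a log10 ratio, made with Feature Extraction 11.0.1.1 per the submitters' processing notes (10.10.1.1 in the headers of the 6 arrays). The deposited table of the authors holds normalized log2 values, 41174 of whose rows matched a probe, and the steps behind it are not given in the sources used here.

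Intensities were background-corrected (normexp, offset 50) and loess-normalized in limma 3.58.1 (R 4.3.3, with statmod 1.5.0). Spots called outliers (0.704% of values) and 1639 control spots were left out, and the local background of background outliers was replaced by the array median, a step chosen after the normexp parameters, but not results, had been seen. Of 41174 probes, 27572 carried a gene symbol. Testing was limited to probes whose Cy5 signal stood well above background in 50% or more of any group's arrays, and a gene was represented by its brightest probe. limma's moderated test was run on 20 arrays with a term for each mouse and for dose by time, with Benjamini-Hochberg adjustment, and it was tested on simulated data. Pairing rests on the mouse named in the labels. Deviations of the d4 and d28 arrays of a mouse correlated by -0.012, -0.03 and -0.063. The methods give 5 animals per group, while the labels pair 3. The replicates were separate mice. With a term for each mouse, p-values of the paired fit rest on how the d28 minus d4 difference varied between mice, pooled over the dose groups. The fits of the whole series have no such term. Their p-values rest on the spread between arrays of every group, with mouse or slide as a random block.

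The members and gene lists were chosen with earlier results of these data known, and the hepatocyte and exocrine pancreas lists were drawn up after those genes had been seen. Named genes were the 12 with the largest mean difference each way among those at least 2-fold in all 3 mice with an unadjusted p under 0.05, up to 4 members of each list, and members of the study's lists, of which not all are printed, and 1 of which is not reported here. Krt5, Krt14 and Alb were added as markers after their values had been seen.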

Additional observations from a re-analysis of the deposited data

How the results depend on the processing

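No probe passed with the 6 arrays of 6 Gy alone, with no replicate block (0 higher and 0 lower; 391 and 297 at an unadjusted p under 0.05 with a 2-fold difference), with slide as a random block, without background correction, with Aquantile, which leaves log ratios as they are, with median centering, with the scanner software's ratio, or with the stricter or no filter. Leaving out M016, M018 or M020 gave 0 to 0 in each direction, and between 538 and 851 higher and between 314 and 626 lower at an unadjusted p. Unadjusted splits moved with the scaling, to 829 higher and 39 lower with median centering and to 1281 higher and 971 lower with the scanner software's ratio. With normexp fitted on the background as deposited, an alternative chosen after seeing the data, they were 142 higher and 106 lower.

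With all 82 arrays and mouse as a random replicate block, 207 probes were higher and 163 lower, and of 568 tested members of the gene lists 37 were higher and 19 lower, against 0.922% and 0.798% of all genes. In that fit 29 probes were higher and 11 lower than after 3 Gy, and 1 higher than in sham. With slide as a random block over all 82 arrays, 13 probes were higher and 2 lower, 0 list members were higher and 1 lower, and no probe differed between doses. The deposited normalized values gave 174 higher and 509 lower probes (0.669% and 1.96% of all probes) and 38 higher and 71 lower list members of the 568. With no filter 1 probe was lower than in sham. The cause of these differences was not tested.

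Of 1500 settings of the 95 named genes, 14 turned the direction. In the deposited normalized values these were Aif1 (-0.17), Col1a1 (-0.13), Col1a2 (-0.42), Col3a1 (-0.20), Fosb (0.73), H2-Aa (-0.27), Lhx2 (-0.24), Pirb (-0.955) and Slc4a1 (-0.23). The scanner software's ratio turned H2-Aa (-0.26) and Stfa1 (-0.008), median centering turned Krt14 (0.36) and Krt5 (0.33), and slide over all 82 arrays turned Xcr1 (-0.20). The 3 pairs, the slides that split each pair, and probes near background limit what can be read from single genes.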
